A study of Rattus norvegicus with 4 samples.

Results

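The genes that license, copy and repackage DNA in S phase were examined in cultured rat Schwann cells (SCs) that overexpressed the Egr2 promoter antisense RNA (Egr2-AS). The 51 members were chosen by name, from knowledge of DNA replication and with earlier results of these data known. They comprised 15 licensing genes, 26 genes of the replication fork, 6 genes of nucleotide supply and uracil removal and 4 genes of chromatin assembly and DNA methylation upkeep. Of the 51 members, 50 had a row among the 17949 genes of the count table, all 50 passed the filter on low counts, and Chaf1a had no row. SCs are the glia of peripheral nerve, here primary cells from rat sciatic nerve that were expanded in serum with forskolin and heregulin-β1, which was common to all 4 samples. Lentiviral infection lasted 48 h, with polybrene, and delivered either the antisense RNA (Lenti-AS, n = 2) or GFP from the empty backbone as a control (Lenti-GFP, n = 2). The antisense vector carries DsRed and the control vector GFP, so the effects of the reporter and of the antisense RNA cannot be told apart. Egr2-AS itself has no row in the count table, so its overexpression could not be checked there. The paper's methods describe a qPCR for it in the infected cells. Egr2, the gene whose transcription this antisense RNA is described as inhibiting, had 49.2 and 42.1 CPM (counts scaled to library size) in Lenti-GFP and 61.2 and 54.0 CPM in Lenti-AS. The libraries labelled Lenti-AS were thus the higher ones, against that direction, and the difference was not called (log2 fold change 0.33, adjusted p = 0.152 with edgeR and 0.0336 with DESeq2, below the cut-off of 1.3-fold in both). The paper's evidence for inhibition used other measures than these counts, among them EGR2 protein, chromatin accessibility at the locus and a luciferase assay of the promoter. The strain and age of the animals are not given in the sources used here. The samples are called biological replicates, but separate animals or cell preparations are not named, so the tests measure the spread between these samples.

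Before S phase, the origin recognition complex (Orc1 to Orc6) with Cdc6 and Cdt1 loads the ring of Mcm2 to Mcm7 onto DNA, and geminin (Gmnn) blocks Cdt1 so that each origin is licensed once per cycle. Cdc45 and the GINS complex then turn the loaded ring into the active helicase, and polymerases alpha, delta and epsilon copy the strands with the clamp Pcna and its loader, replication factor C. Many of these genes are transcribed at the G1/S boundary under E2F factors. Genes of mitosis are mostly transcribed later, under complexes that hold MuvB and act at elements known as CHR. SCs in culture divide in response to heregulin and forskolin, and dividing SCs also appear in injured nerve.

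The letters around the annotated start sites show the element that many of these promoters share, and they are printed here because many replication genes are known E2F targets. RefSeq promoter windows of the GRCr8 assembly, from 250 bases before to 50 bases after each start, were found for 44 members. Each stretch below runs 5′ to 3′ in the direction of the gene, from 150 bases before the start to 25 after it, and the capitals mark a word of the E2F type. The 5 genes of the Mcm ring with a window are shown together with Uhrf1, Gins1 and Tyms, and Orc2 is shown as a licensing gene without the word. The windows of Mcm10, a fork gene outside the ring, and of Tk1, a called member, lack the word and are not printed. Of the 3 windows of Uhrf1, the one that holds the word is shown. Upstream of the stretch printed, Mcm7 and Uhrf1 have 1 further word each and Mcm5 an overlapping pair.
Mcm2 (chr4:122918070-122918244, minus strand): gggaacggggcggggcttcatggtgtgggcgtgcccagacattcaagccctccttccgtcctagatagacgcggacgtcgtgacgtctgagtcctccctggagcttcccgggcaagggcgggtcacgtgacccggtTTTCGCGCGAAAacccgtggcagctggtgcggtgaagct
Mcm3 (chr9:30733722-30733896, minus strand): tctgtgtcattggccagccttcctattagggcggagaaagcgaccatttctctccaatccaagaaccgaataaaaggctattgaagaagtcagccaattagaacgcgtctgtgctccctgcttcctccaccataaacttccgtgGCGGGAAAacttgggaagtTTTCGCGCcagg
Mcm5 (chr19:13488663-13488837, plus strand): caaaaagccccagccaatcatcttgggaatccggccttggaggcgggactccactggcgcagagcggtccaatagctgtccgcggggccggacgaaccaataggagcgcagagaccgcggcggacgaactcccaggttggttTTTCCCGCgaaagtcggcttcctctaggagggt
Mcm6 (chr13:42404328-42404502, minus strand): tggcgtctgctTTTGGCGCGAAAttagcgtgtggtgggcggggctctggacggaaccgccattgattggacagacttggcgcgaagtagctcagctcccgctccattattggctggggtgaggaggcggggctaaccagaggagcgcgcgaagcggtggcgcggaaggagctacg
Mcm7 (chr12:22163154-22163328, minus strand): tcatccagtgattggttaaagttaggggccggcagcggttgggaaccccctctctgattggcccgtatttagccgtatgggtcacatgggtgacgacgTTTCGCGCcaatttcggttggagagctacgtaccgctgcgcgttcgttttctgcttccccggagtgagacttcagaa
Uhrf1 (chr9:1223036-1223210, plus strand): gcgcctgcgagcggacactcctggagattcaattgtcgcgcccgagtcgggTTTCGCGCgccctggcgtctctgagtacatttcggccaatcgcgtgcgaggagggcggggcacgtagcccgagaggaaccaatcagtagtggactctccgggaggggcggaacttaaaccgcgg
Gins1 (chr3:160184770-160184944, plus strand): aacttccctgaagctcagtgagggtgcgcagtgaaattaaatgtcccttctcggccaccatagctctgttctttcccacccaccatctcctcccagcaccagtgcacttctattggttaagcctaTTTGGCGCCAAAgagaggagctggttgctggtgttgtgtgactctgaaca
Tyms (chr9:120776059-120776233, minus strand): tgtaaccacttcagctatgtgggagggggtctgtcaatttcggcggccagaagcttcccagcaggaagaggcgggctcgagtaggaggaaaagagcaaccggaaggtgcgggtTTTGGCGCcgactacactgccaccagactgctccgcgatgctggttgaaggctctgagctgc
Orc2 (chr9:67526625-67526799, minus strand): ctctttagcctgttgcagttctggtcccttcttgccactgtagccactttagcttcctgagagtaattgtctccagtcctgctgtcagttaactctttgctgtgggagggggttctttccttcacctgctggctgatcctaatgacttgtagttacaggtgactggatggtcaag

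The E2F word searched was TTTCCCGC, TTTCGCGC, TTTGCCGC or TTTGGCGC, on both strands. It was present in 22 of the 44 members (50.0%) and in 651 of 27457 genes with a window (2.37%). All 5 Mcm ring genes with a window held it (Mcm2, Mcm3, Mcm5, Mcm6 and Mcm7), and 9 of 11 licensing genes, 9 of 24 fork genes, 2 of 5 nucleotide genes and 2 of 4 chromatin genes did. In Mcm2, Mcm5, Mcm6 and Gins1 a word on each strand overlapped by 4 bases. In Mcm2 the words began 14 bases upstream of the start and in Tyms 37 bases upstream, and one of the Mcm3 words spanned the start itself. The CHR word TTTGAA, on both strands, was present in 6 of the 44 members (13.6%) against 19.4% of all genes with a window. In 34 mitotic genes with a window the order was the other way round, with the CHR word in 26 (76.5%) and the E2F word in 1 (2.94%). The CCAAT word was held by 25 members (56.8%), 26 mitotic genes (76.5%) and 39.6% of all genes with a window. A match of letters is a description of the window and does not show that a factor was bound.

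**Figure D1:**
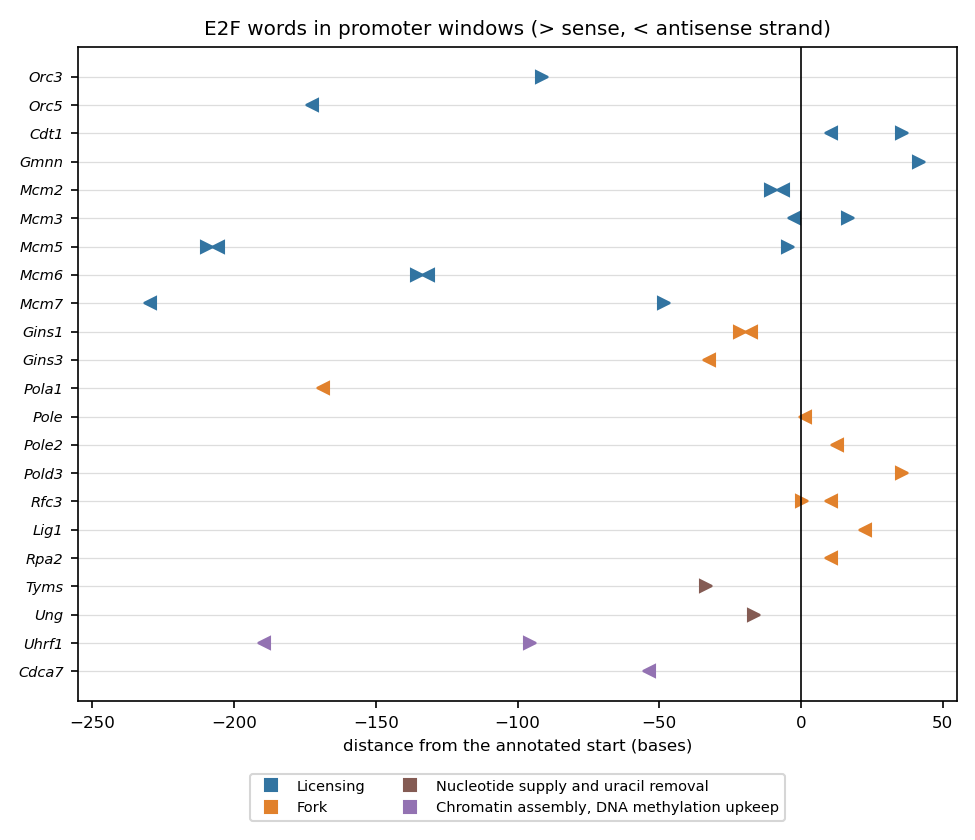
Positions of E2F words in the promoter windows of the 22 members that hold one, with the distance from the annotated start in bases on the x axis, genes on the y axis and triangles pointing along the strand of the word. Words lie on either side of the start, and those of Mcm2, Mcm5, Mcm6 and Gins1 come in overlapping pairs on opposite strands; for Uhrf1, which has 3 windows, the distance is from the start of the window that holds the word.

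Total counts per sample were between 74024323 and 96185890, and the members took 0.214% to 0.216% of them in Lenti-GFP and 0.251% to 0.252% in Lenti-AS. Among SC markers, 9 of 10 had a row and all 9 were above 1 CPM in every sample, with a summed level of 6591 to 6635 CPM in Lenti-GFP and 7171 to 8415 CPM in Lenti-AS. Fibroblast markers summed to 869 and 1010 CPM in Lenti-GFP and to 2487 CPM in Lenti-AS 1 but 425 CPM in Lenti-AS 2, with 5 of 8 above 1 CPM in every sample and Dcn, Lum and Thy1 at or below 0.0321 CPM. Macrophage markers summed to 3.52 to 3.75 CPM in Lenti-GFP and 4.30 to 4.55 CPM in Lenti-AS (2 of 7 above 1 CPM), and endothelial and mural markers to 239 to 267 CPM and 228 to 284 CPM (2 of 6), with Cdh5 at or below 0.0536 CPM. Nearly all of the endothelial and mural sum was Pdgfrb, at 262 and 236 CPM in Lenti-GFP and 225 and 279 CPM in Lenti-AS. Red blood cell markers summed to 3002 CPM in Lenti-AS 2 and to 3.90 to 7.27 CPM in the other samples. In Lenti-AS 2 the globin genes Hbb (1668 CPM), Hbb-b1 (522), Hba-a1 (314), Hbz (303) and Hbe1 (194) made up nearly all of it. Alas2, the marker in this list that is not a globin, did not follow. It had 0.461 and 0.812 CPM in Lenti-GFP and 0.662 and 0.851 CPM in Lenti-AS. In such bulk samples, fewer cells of a type and less RNA per cell cannot be told apart.

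In the comparison of Lenti-AS with Lenti-GFP, 5 members were called higher and 0 lower. These were Mcm3 and Mcm5 of the helicase ring, Rrm2 and Tk1 of nucleotide supply, and Uhrf1, which keeps DNA methylation at newly copied DNA. A call needed an adjusted p under 0.05 (edgeR's quasi-likelihood test, Benjamini-Hochberg over all genes tested) together with a change of 1.3-fold or more, and 1.31% of the 12446 genes tested were called higher and 0.667% lower, so 5 of 50 is above the share of all genes. Because the members were chosen with earlier results known, comparisons of their counts with all genes, here and below, are descriptions only. The changes were moderate, from 1.31-fold for Mcm5 to 1.62-fold for Mcm3. No fork gene was called. Without the fold cut-off the same 5 members passed higher and 0 lower, against 1.4% and 0.779% of all genes. With the Wald test of DESeq2, which called 3.92% of all genes higher and 1.12% lower, 12 members were called higher and 0 lower: the same 5 with Mcm10, Gins2, Gins3, Pola2, Pole, Lig1 and Chaf1b.

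Beyond the called genes, most members leaned the same way by small amounts. The fitted log2 fold change was above 0 for 43 of 50 members, where 51.3% of all genes tested were above 0, and its median was 0.24 (1.18-fold) against 0.01 for all genes. The Lenti-AS samples both lay above the Lenti-GFP samples in 37 members (27.7% of all genes) and both below them in 6 (27.2% of all genes), and the groups overlapped in 7. At an unadjusted p under 0.05 there were 27 members higher and 1 lower, against 12.5% and 9.37% of all genes. The median shift of the members from the Lenti-GFP mean was 0.25 on the log2 scale in Lenti-AS 1 and 0.22 in Lenti-AS 2, while the Lenti-GFP samples lay at 0.02 and -0.02. The sum of the fibroblast markers was highest in Lenti-AS 1 and the globin genes were highest in Lenti-AS 2, and their part in the result was not tested. The members share one pathway and one culture and are not independent replicates of the condition.

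**Figure D2:**
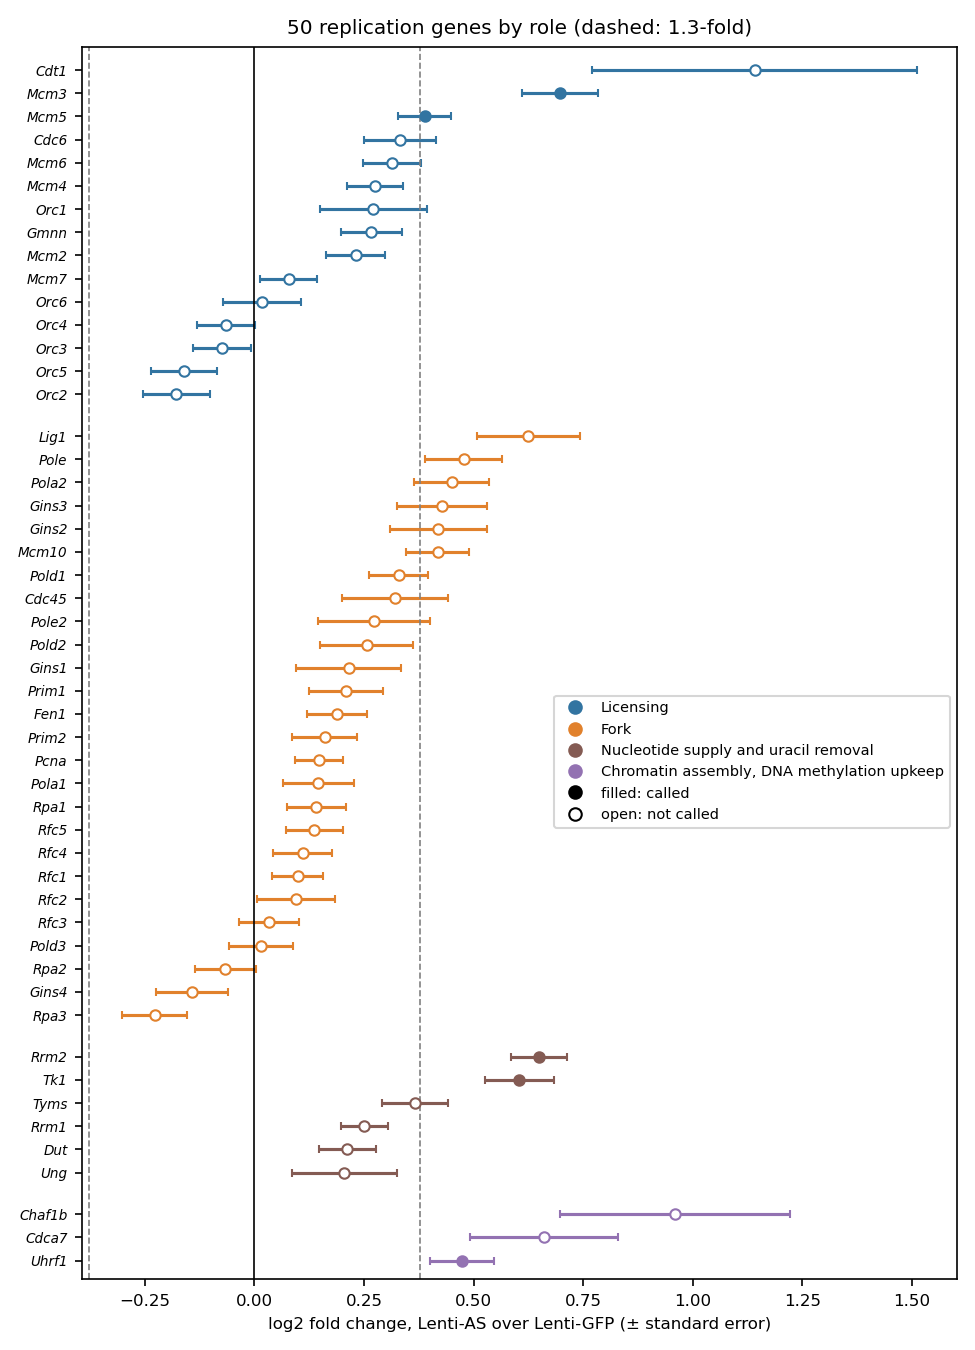
Fitted log2 fold changes of the 50 members with their standard errors, by role, Lenti-AS over Lenti-GFP (n = 2 each), with 1.3-fold as dashed lines. The 5 filled points (Mcm3, Mcm5, Rrm2, Tk1 and Uhrf1) are the called members, and the 7 members left of 0 are Orc2 to Orc5, Gins4, Rpa2 and Rpa3.

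Within licensing, all 6 genes of the helicase ring had fitted changes above 0 and 2 were called, while Orc2 to Orc5 of the origin recognition complex lay below 0 without passing the test and Orc1 and Orc6 lay above it. Mcm3 had 21.9 and 19.4 CPM in Lenti-GFP and 35.0 and 32.0 CPM in Lenti-AS. Its group values were 20.7 ± 1.79 CPM and 33.5 ± 2.08 CPM (SD, n = 2 each), with a log2 fold change of 0.70 (standard error 0.09, adjusted p = 0.0276). The groups were 10.1 CPM apart at their nearest samples, more than the spread within either. Mcm5 had 71.9 and 72.9 CPM in Lenti-GFP and 93.6 and 96.02 CPM in Lenti-AS, or 72.4 ± 0.641 and 94.8 ± 1.73 CPM (SD, n = 2 each). It rose by 0.39 on the log2 scale (standard error 0.06, adjusted p = 0.0428), just past the cut-off of 1.3-fold, and the samples of each group lay within a few CPM of each other.

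The other ring genes had smaller differences that did not pass the test. Mcm6 had 76.0 and 80.8 CPM in Lenti-GFP and 95.1 and 99.8 CPM in Lenti-AS (log2 fold change 0.31 ± 0.07 SE, adjusted p = 0.0788). Mcm4 gave 0.27 (adjusted p = 0.0939) and Mcm2 0.23 (adjusted p = 0.133), in both cases without overlap of the groups. Mcm7 was the exception in the ring, with 105 and 98.3 CPM in Lenti-GFP and 105 and 110 CPM in Lenti-AS, where the groups overlapped (log2 fold change 0.08 ± 0.06 SE). Summed over the 6 ring genes, the level was 431 and 435 CPM in Lenti-GFP and 516 and 531 CPM in Lenti-AS, or 1.21 times as much.

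The origin recognition complex, which marks origins and of which Orc2 to Orc5 form the stable core, showed no member called. Orc2 had 45.1 and 41.9 CPM in Lenti-GFP and 37.0 and 39.9 CPM in Lenti-AS. Its log2 fold change was -0.18 (standard error 0.08, adjusted p = 0.246), the lowest of the licensing genes, and the nearest samples were only 2.05 CPM apart. Orc5, Orc3 and Orc4 had log2 fold changes of -0.16, -0.07 and -0.06, with the Lenti-AS samples below the Lenti-GFP samples in each. Orc6 lay at 0.02 with overlapping groups. Orc1, the subunit whose level is known to cycle, had a log2 fold change of 0.27 (adjusted p = 0.259), with Lenti-AS above Lenti-GFP. The summed level of Orc2 to Orc6 was 232 and 227 CPM in Lenti-GFP and 213 and 217 CPM in Lenti-AS. The ratio of the Mcm sum to this Orc sum, which does not depend on how the libraries were scaled, was 1.85 and 1.92 in Lenti-GFP and 2.43 and 2.45 in Lenti-AS.

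The loading factors Cdc6 and Cdt1 and the inhibitor Gmnn were not called. Cdc6 had 13.5 and 12.9 CPM in Lenti-GFP and 16.3 and 16.9 CPM in Lenti-AS (log2 fold change 0.33 ± 0.08 SE, adjusted p = 0.103). Cdt1 had the largest fitted change of all members, a log2 fold change of 1.14, but also the largest standard error, 0.37 (adjusted p = 0.161). It rested on 132 and 80 counts in Lenti-GFP and 277 and 136 counts in Lenti-AS, and the nearest samples of the groups were 0.395 CPM apart, less than the spread of either group. Gmnn had 22.5 and 21.8 CPM in Lenti-GFP and 27.6 and 25.7 CPM in Lenti-AS (log2 fold change 0.27, adjusted p = 0.115).

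**Figure D3:**
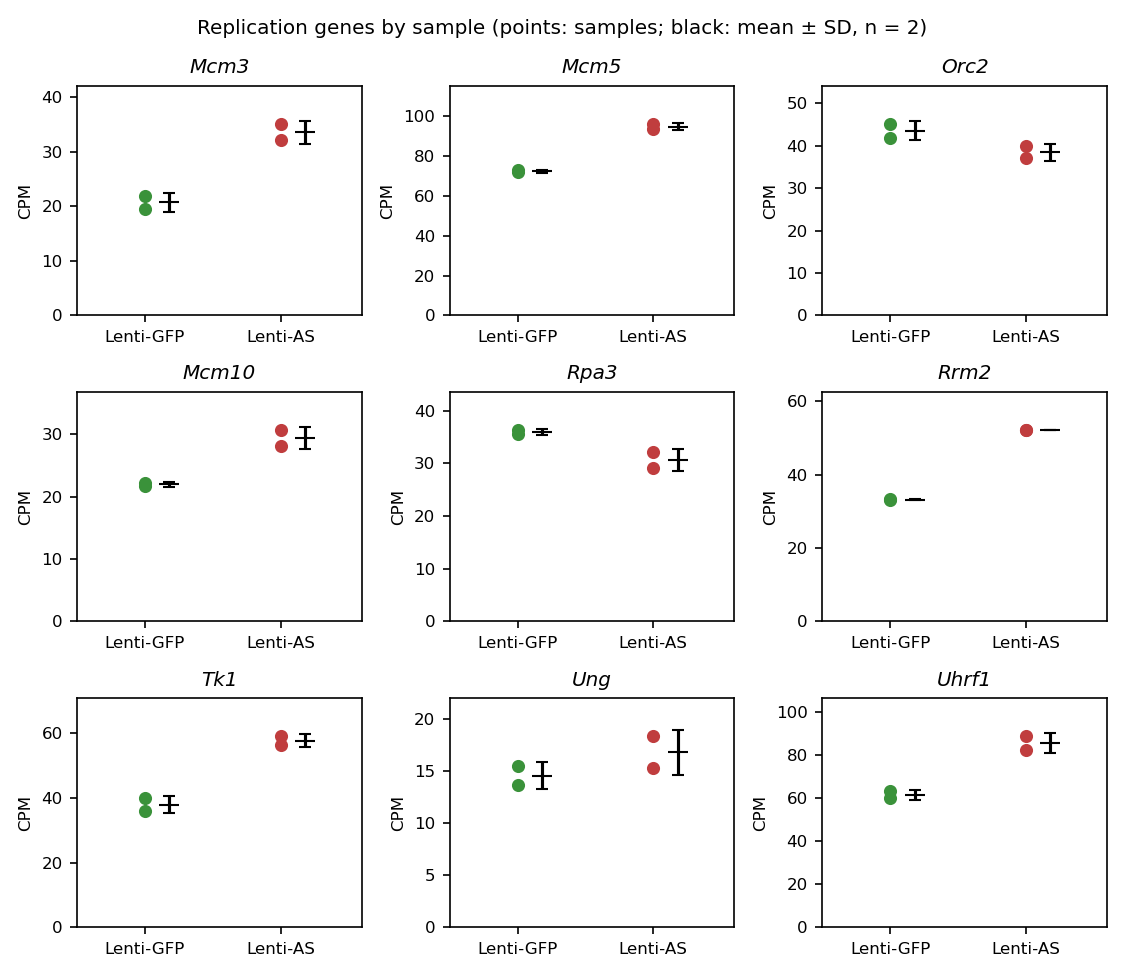
CPM of 9 members in each sample, on axes that start at 0, with the mean and SD of each group (n = 2) in black beside the points. The groups are apart for Mcm3, Mcm5, Mcm10, Rrm2, Tk1 and Uhrf1 with Lenti-AS higher and for Orc2 and Rpa3 with Lenti-AS lower, and they overlap for Ung.

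At the fork, 23 of 26 genes had a fitted change above 0, and the medians were 0.32 for GINS and 0.27 for polymerases epsilon and delta, against 0.10 for the clamp loader and -0.07 for the single-strand binding protein. Mcm10, which helps to activate the helicase, came nearest to being called among the fork genes, with 22.3 and 21.7 CPM in Lenti-GFP and 28.1 and 30.6 CPM in Lenti-AS (21.99 ± 0.387 and 29.4 ± 1.76 CPM, SD, n = 2 each). Its log2 fold change was 0.42 (standard error 0.07, adjusted p = 0.0506), and it was called with DESeq2, with each other scaling and with both other filters on low counts. Mcm10 was not called with limma-voom, a newer quasi-likelihood fit or a fit with the replicate number as a block. Cdc45 had 10.9 and 10.1 CPM in Lenti-GFP and 11.9 and 14.3 CPM in Lenti-AS (log2 fold change 0.32, adjusted p = 0.205), and its Lenti-AS samples differed from each other by more than the groups did at their nearest samples. The GINS genes were uneven: Gins2 and Gins3 had log2 fold changes of 0.42 and 0.43 (adjusted p = 0.116 and 0.0985), Gins1 had 0.22, and Gins4 had -0.14 (adjusted p = 0.361), with 33.4 and 34.6 CPM in Lenti-GFP and 32.7 and 28.9 CPM in Lenti-AS.

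Among the polymerases, Pole, the catalytic subunit of the leading-strand enzyme, had 35.7 and 33.6 CPM in Lenti-GFP and 45.1 and 51.4 CPM in Lenti-AS (log2 fold change 0.48 ± 0.09 SE, adjusted p = 0.0580). Pola2, the accessory subunit of polymerase alpha, had 17.2 and 15.6 CPM in Lenti-GFP and 21.7 and 23.2 CPM in Lenti-AS (log2 fold change 0.45, adjusted p = 0.0614). Both sets of samples were clearly apart in these genes. The catalytic subunit Pola1 and the primase subunits Prim1 and Prim2 had smaller values of 0.15, 0.21 and 0.16. Of the lagging-strand polymerase, Pold1 had 0.33 and Pold2 0.26, while Pold3 had 0.01 and overlapping groups.

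Lig1, the ligase that seals the lagging strand, had the largest fitted change of the fork genes. It was at 7.83 and 7.14 CPM in Lenti-GFP and 12.2 and 10.9 CPM in Lenti-AS (log2 fold change 0.63 ± 0.12 SE, adjusted p = 0.0607). Fen1, which trims the flaps that Lig1 closes, gave 0.19 (adjusted p = 0.198), and Pcna, the clamp on which both work, gave 0.15, with 264 and 261 CPM in Lenti-GFP and 299 and 283 CPM in Lenti-AS (standard error 0.05, adjusted p = 0.198). The 5 Rfc genes lay between 0.03 and 0.14, summing to 297 and 299 CPM in Lenti-GFP and 316 and 318 CPM in Lenti-AS, and groups overlapped in Rfc2 and Rfc3. Of the single-strand binding protein RPA, Rpa1 had 0.14, Rpa2 -0.07 and Rpa3 -0.23. Rpa3, the smallest subunit, had 36.3 and 35.6 CPM in Lenti-GFP and 32.2 and 29.2 CPM in Lenti-AS (35.9 ± 0.507 and 30.7 ± 2.12 CPM, SD, n = 2 each, standard error of the fold change 0.07, adjusted p = 0.165), the lowest fold change of all members. It was also the only member below 0 at an unadjusted p under 0.05.

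All 6 genes of nucleotide supply and uracil removal had a fitted level above that of Lenti-GFP, and 2 were called. Rrm2, the S phase subunit of ribonucleotide reductase, which makes the deoxynucleotides, had 33.1 and 33.4 CPM in Lenti-GFP and 52.1 and 52.1 CPM in Lenti-AS. The group values of 33.2 ± 0.206 CPM and 52.1 ± 0.0354 CPM (SD, n = 2 each) gave a log2 fold change of 0.65 (standard error 0.06) and the smallest adjusted p of any member, 0.0192. Its partner Rrm1 had 182 and 185 CPM in Lenti-GFP and 223 and 213 CPM in Lenti-AS (log2 fold change 0.25, adjusted p = 0.0809). Tk1, the thymidine kinase of the salvage route, had 39.8 and 36.1 CPM in Lenti-GFP and 59.0 and 56.4 CPM in Lenti-AS, or 38.0 ± 2.66 and 57.7 ± 1.88 CPM (SD, n = 2 each). It rose by 0.60 on the log2 scale (standard error 0.08, adjusted p = 0.0298), and the groups were 16.6 CPM apart. Tyms, which makes thymidylate anew, had 14.4 CPM in both Lenti-GFP samples and 18.8 and 18.3 CPM in Lenti-AS (log2 fold change 0.37, adjusted p = 0.0755). Dut, which keeps uracil out of DNA, gave 0.21 without overlap. Ung, which removes it, had 15.5 and 13.7 CPM in Lenti-GFP and 15.3 and 18.4 CPM in Lenti-AS (log2 fold change 0.21 ± 0.12 SE, adjusted p = 0.367), with overlapping groups and the lowest value of this role.

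In chromatin assembly and DNA methylation upkeep, the 3 genes with a row had the largest median of the roles, a log2 fold change of 0.66, against 0.27 for licensing, 0.17 for the fork and 0.31 for nucleotide supply. Uhrf1, which recruits the maintenance methyltransferase Dnmt1 to copied DNA, was called, with 59.9 and 63.2 CPM in Lenti-GFP and 88.7 and 82.3 CPM in Lenti-AS, or 61.5 ± 2.39 and 85.5 ± 4.59 CPM (SD, n = 2 each). It rose by 0.47 on the log2 scale (standard error 0.07, adjusted p = 0.0428). It had the smallest fitted change of the 3 but the most counts. Cdca7, which works with the remodeller Hells, had 2.01 and 2.17 CPM in Lenti-GFP and 3.24 and 3.38 CPM in Lenti-AS (log2 fold change 0.66 ± 0.17 SE, adjusted p = 0.110). Chaf1b, a subunit of the histone chaperone that places new nucleosomes behind the fork, had 214 and 136 counts in Lenti-GFP and 342 and 251 counts in Lenti-AS (log2 fold change 0.96 ± 0.26 SE, adjusted p = 0.122). In these low-count genes the Lenti-AS samples were above the Lenti-GFP samples, and the errors were wide.

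Ratios of counts between members of the same sample do not depend on library scaling, and 6 pairs were formed after the values had been seen, so they are given as descriptions. They are not molar ratios, since gene lengths were not used. The ratio of Rrm2 to Rrm1 was 0.182 and 0.180 in Lenti-GFP and 0.233 and 0.244 in Lenti-AS. That of Mcm3 to Mcm7 was 0.208 and 0.197 in Lenti-GFP and 0.333 and 0.291 in Lenti-AS. In both pairs, partners of one enzyme differed between the groups by unequal amounts. Cdt1 to its inhibitor Gmnn stood at 0.0629 and 0.0387 in Lenti-GFP and 0.115 and 0.0704 in Lenti-AS, and Lig1 to Fen1 at 0.165 and 0.145 in Lenti-GFP and 0.228 and 0.192 in Lenti-AS. For the subunits with lower levels in Lenti-AS the ratios turned the other way, with Rpa3 to Rpa1 at 0.577 and 0.545 in Lenti-GFP and 0.448 and 0.419 in Lenti-AS, and Orc2 to Mcm2 at 0.517 and 0.454 in Lenti-GFP and 0.363 and 0.366 in Lenti-AS.

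**Figure D4:**
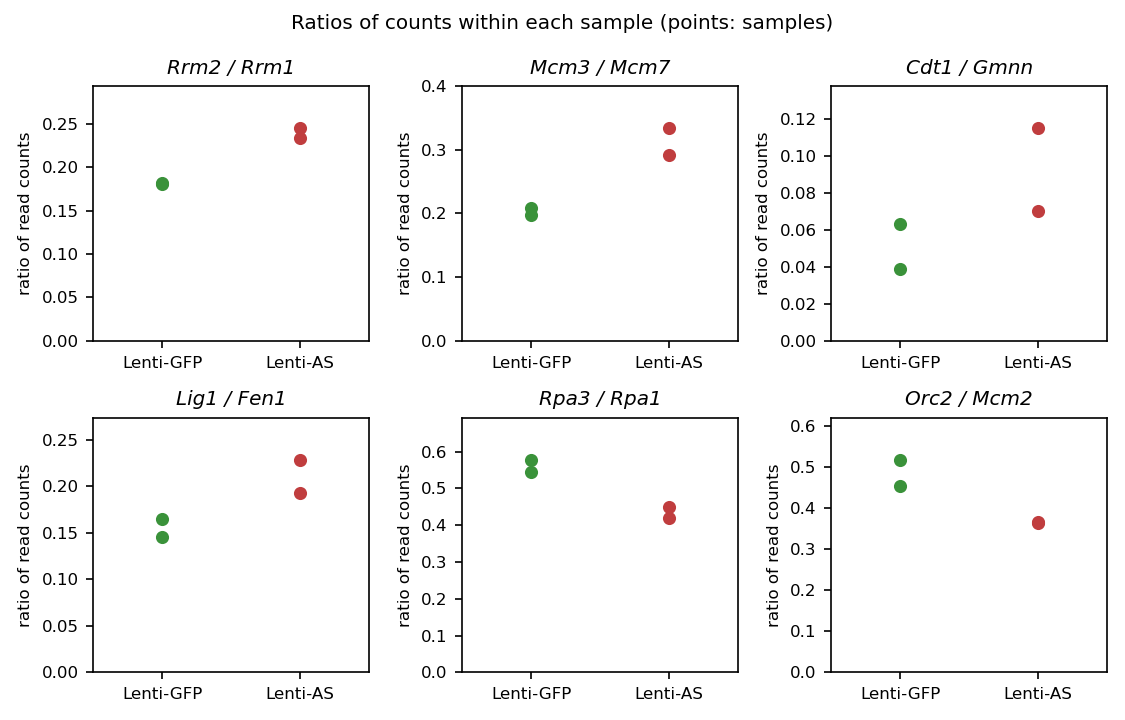
Ratios of read counts between pairs of members within each sample, on axes that start at 0, one point per sample. For all 6 pairs the Lenti-AS samples lie apart from the Lenti-GFP samples, higher for Rrm2 / Rrm1, Mcm3 / Mcm7, Cdt1 / Gmnn and Lig1 / Fen1 and lower for Rpa3 / Rpa1 and Orc2 / Mcm2; the pairs were chosen after the values had been seen.

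The fold changes of members with and without the E2F word covered like ranges. The 22 members that held it had a median log2 fold change of 0.27 and ranged from -0.16 to 1.14, and the 21 tested members whose windows lacked it had a median of 0.21 and ranged from -0.18 to 0.96. Of the called members, Mcm3, Mcm5 and Uhrf1 held the word, the window of Tk1 lacked it, and Rrm2 had no window in the table. Fitted changes above 0 were found in 19 of the 22 members with the word and in 20 of the 21 without it. Orc5, Orc3 and Rpa2, with log2 fold changes of -0.16, -0.07 and -0.07, held it as well. No test was made of this split.

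Replication genes outside the members were also mostly above 0, with 31 of those tested (75.6%), against 51.3% of all genes. Of 48 such genes, 41 had a row and were tested, and the median log2 fold change was 0.19. Of the 41, 4 were called higher and 0 lower, against 1.31% and 0.667% of all genes. The called genes were Top2a, the topoisomerase that untangles copied DNA (log2 fold change 0.43, adjusted p = 0.0276), Mms22l, which acts at stalled forks (0.42, adjusted p = 0.0463), Clspn, which passes the checkpoint signal at the fork (0.49, adjusted p = 0.0465), and the nucleoside kinase Dck (0.52, adjusted p = 0.0499). Ccne1, the G1/S cyclin, had 5.88 and 5.70 CPM in Lenti-GFP and 9.87 and 7.92 CPM in Lenti-AS and was not called (adjusted p = 0.0946). The histone chaperone genes split, with Asf1b at 0.85 and Asf1a at -0.22 (adjusted p = 0.148 and 0.140), while the abundant Ssrp1, Supt16h and Nasp lay between -0.03 and 0.02.

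Mitotic genes, set beside the members because they belong to the next phases of the same cycle, differed more between the groups. Of 40 listed, 36 were tested, and 24 were called higher and 0 lower, against 1.31% and 0.667% of all genes. All 36 had Lenti-AS above Lenti-GFP without overlap, as did 27.7% of all genes. The median log2 fold change of the mitotic genes was 0.52 against 0.24 for the replication genes. Their shift was alike in both Lenti-AS samples, 0.48 and 0.46. The 4 smallest unadjusted p-values belonged to the kinetochore gene Cenpf (log2 fold change 0.65, adjusted p = 0.0144), the ubiquitin carrier Ube2c (0.65, adjusted p = 0.0191), the spindle assembly factor Tpx2 (0.61, adjusted p = 0.0236) and the cyclin Ccnb2 (0.65, adjusted p = 0.0252). Earlier results of these data had already shown the larger rise of mitotic genes, so this is no independent support for it, and the difference between the lists was not tested. Cdkn1a, whose product p21 binds Pcna and inhibits cyclin-dependent kinases, rose in the same samples, from 16.8 and 15.2 CPM in Lenti-GFP to 61.5 and 41.2 CPM in Lenti-AS (log2 fold change 1.68 ± 0.19 SE, adjusted p = 0.0247).

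**Figure D5:**
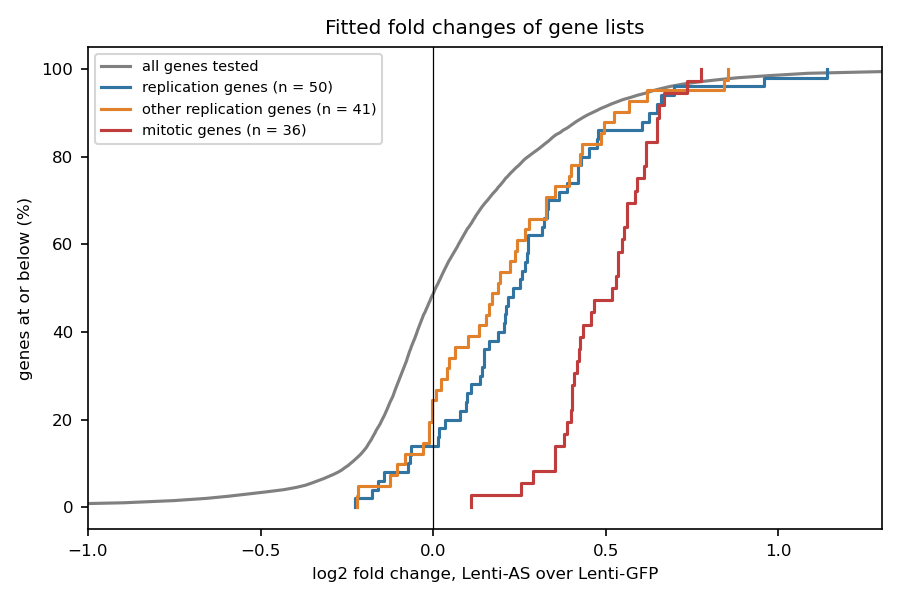
Cumulative share of genes (%) at or below each fitted log2 fold change, Lenti-AS over Lenti-GFP, for all genes tested, the 50 replication genes, 41 other replication genes and 36 mitotic genes. The medians of the replication lists, 0.24 and 0.19, lie between those of all genes (0.01) and the mitotic genes (0.52).

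The calls rest on 2 samples per group, for which an exact permutation test of a single gene cannot give a two-sided p under 0.333. With 1 sample left out, the log2 fold changes of the 5 called members stayed between 0.37 and 0.79. The calls themselves changed with the sample left out, for the members and over all genes tested. They were fewer without either Lenti-GFP sample and more without either Lenti-AS sample.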

How the data were processed

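RNA-seq libraries of 4 samples were used, 2 per virus, and titles gave the groups. Per the paper's methods, the authors mapped the 50 bp read pairs with hisat2 (rn6) and counted reads over RefSeq exons with featureCounts. The submitters' processing notes list GSNAP as well. Versions, the strand setting and the treatment of reads with several matches are not given in the sources used here, so genes that overlap an antisense transcript or have near-identical copies are less certain. The deposited values are raw counts per gene, and 1 repeated header row was dropped.

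The 12446 of 17949 genes that reached 10 counts in 2 or more samples entered edgeR 4.0.16 under R 4.3.3 (TMM factors, glmQLFit, glmQLFTest, no replicate term), with Benjamini-Hochberg adjustment over all genes tested. This is the test behind every adjusted p unless DESeq2 is named. Standard errors came from the F statistic. CPM used TMM-scaled library sizes and was compared within genes only. The test was tried on simulated counts. Alternatives were DESeq2 1.42.0, limma-voom (limma 3.58.1), other scalings, filters and cut-offs, a replicate block and leaving out each sample. Depth was 74024323 to 96185890 counts.

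Members, roles and lists were chosen with earlier results of these data known. Values by sample were set to be given for called members and, in each role, for the member with the smallest p and that with the lowest fold change, with the 4 smallest p-values of the comparison lists and Cdkn1a. Other members are named with values as well. Promoter sequences are from RefSeq (GRCr8), not the build of the counts, and matched by symbol for 44 of 51 members. A gene with several windows counted as holding a word if any did.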

Additional observations from a re-analysis of the deposited data

How the results depend on the processing

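Against 5 replication genes called higher, DESeq2 called 12, no low-count filter 8, a fold change of at least 1.5 left 3, and the fit with the replicate number as a block (replicate block) called 0. RLE, upper-quartile and library-total scaling and 10 counts in all samples each called 6, adding Mcm10, and limma-voom, the newer quasi-likelihood fit and no fold cut-off called the same 5. No setting called a member lower. Leaving out one sample gave 0 to 13 called. Against 24 mitotic genes called higher, the replicate block called 0, a fold change of at least 1.5 left 9, and leaving out one sample gave 0 to 31. The lone sample of a group is then assumed to vary like the other group, and the cause of these shifts was not tested.

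The median log2 fold change of the members was 0.24, 0.27 with library totals, where the median of all genes was 0.04, and 0.22 to 0.26 with one sample left out. No member changed sign under another scaling. With one sample left out, 39 members stayed above 0 and 7 below, while Orc6 ranged from -0.0547 to 0.0987, Pold3 from -0.0502 to 0.0768, Rfc2 from -0.0153 to 0.20 and Rfc3 from -0.0054 to 0.0775.

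The labels do not say that replicate numbers mark a shared culture or day. Deviations of samples that carry one number were uncorrelated (r = -0.00644 over 12424 genes, which are not independent replicates). This sets a single difference within Lenti-AS against a single difference within Lenti-GFP, so it cannot show whether the numbers mark a pairing. In the blocked fit 3 genes of all tested were called higher and 14 lower, with 23 members higher at an unadjusted p under 0.05 against 27. The block also leaves less of the 4 samples from which to estimate the spread. Members with few counts (Cdt1, Chaf1b and Cdca7) had the widest errors.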
